A study of Homo sapiens with 30 samples.

Results

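The 10 genes described here are immediate early and stress response genes: the AP-1 subunits FOS, FOSB, JUN and JUNB, the transcription factors EGR1, NR4A1 and ATF3, the response genes IER2 and IER3, and the phosphatase gene DUSP1. They were chosen by symbol, and all 10 of 10 were found among the 20114 gene symbols of the table and passed the filter on low values. Polyadenylated RNA was sequenced in 30 libraries, 2 for each of 15 groups, of SUM190, an established human cell line of inflammatory breast cancer, and of its doxorubicin-resistant and paclitaxel-resistant sublines. Cells were seeded for 24 h and then treated for 72 h. Parental cells were kept in the vehicle DMSO, in paclitaxel at 2.5 or 10 nM, in doxorubicin at 65 nM or 1 µM, in ruxolitinib, or in ruxolitinib with 2.5 nM paclitaxel. The doxorubicin-resistant line received DMSO or its drug at 350 nM or 1 µM. The paclitaxel-resistant line received DMSO, paclitaxel at 6.5 or 10 nM, ruxolitinib, or both agents, with paclitaxel at 6.5 nM. The labels give ruxolitinib as 15 µM alone and as 15 nM in both combinations, so the doses are given as labelled and the single agent and the combination are not compared dose for dose. The labels do not say whether a resistant line is a clone or a pool, nor whether the resistant cells in DMSO had been kept free of their drug. Whether the 2 replicates of a group came from different cultures is not labelled either. Every p-value therefore sets a difference only against the spread between replicate libraries, pooled over all 15 groups, and that spread may be technical.

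Immediate early genes are transcribed without new protein synthesis when growth factors, cytokines or stress activate kinases of the ERK, JNK and p38 families. FOS and FOSB pair with JUN or JUNB to form AP-1, a factor that binds DNA as a dimer. EGR1 is a zinc finger factor driven through serum response elements, NR4A1 is an orphan nuclear receptor, and ATF3 is a factor induced by DNA damage, by the integrated stress response and by JNK signalling. DUSP1 removes phosphate from JNK, p38 and ERK and so ends the signals that induce it. Doxorubicin poisons topoisomerase II and intercalates into DNA, paclitaxel stabilises microtubules, and ruxolitinib inhibits the kinases JAK1 and JAK2. All levels here were read after 72 h of drug.

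Promoter sequences are shown for the members whose levels differed most between groups, together with DUSP1, whose window holds the full cyclic AMP response element. Windows of 250 bases before the annotated start came from RefSeq (GRCh38.p14, which is not the build of the expression table), where 9 of the 10 members were matched and ATF3 and NR4A1 have 2 starts each. Capitals mark matches, on either strand, to 7 motifs: the AP-1 site TGANTCA, the ATF and cyclic AMP response octamer TGACNTCA, the CArG box bound by serum response factor, the EGR site GCGNGGGCG, the STAT site TTCNNNGAA, the ATF4 site TGATGNAA and the TATA box TATAAA.
EGR1 (chr5:138465229-138465478, plus strand): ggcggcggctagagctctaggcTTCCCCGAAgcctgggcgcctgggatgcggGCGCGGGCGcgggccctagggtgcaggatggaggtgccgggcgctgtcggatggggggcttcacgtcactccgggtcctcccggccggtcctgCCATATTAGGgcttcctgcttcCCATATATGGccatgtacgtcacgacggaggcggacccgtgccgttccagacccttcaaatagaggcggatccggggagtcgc
ATF3, the start farther upstream (chr1:212565157-212565406, plus strand): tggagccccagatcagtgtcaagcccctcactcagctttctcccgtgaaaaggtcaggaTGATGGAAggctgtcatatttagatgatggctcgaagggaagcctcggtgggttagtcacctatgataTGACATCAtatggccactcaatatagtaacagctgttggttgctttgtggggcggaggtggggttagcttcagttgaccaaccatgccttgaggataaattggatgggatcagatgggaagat
JUN (chr1:58784048-58784297, minus strand): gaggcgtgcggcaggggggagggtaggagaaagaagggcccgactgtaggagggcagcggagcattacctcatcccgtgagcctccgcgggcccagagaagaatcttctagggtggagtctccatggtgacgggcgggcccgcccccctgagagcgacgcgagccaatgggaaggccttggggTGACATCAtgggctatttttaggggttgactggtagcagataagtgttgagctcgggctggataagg
FOS (chr14:75278578-75278827, plus strand): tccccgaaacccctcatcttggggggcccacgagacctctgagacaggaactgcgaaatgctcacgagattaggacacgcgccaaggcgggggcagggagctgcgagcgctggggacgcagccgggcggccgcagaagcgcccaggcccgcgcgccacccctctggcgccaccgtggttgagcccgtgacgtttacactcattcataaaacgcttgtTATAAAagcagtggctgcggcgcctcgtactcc
FOSB (chr19:45467746-45467995, plus strand): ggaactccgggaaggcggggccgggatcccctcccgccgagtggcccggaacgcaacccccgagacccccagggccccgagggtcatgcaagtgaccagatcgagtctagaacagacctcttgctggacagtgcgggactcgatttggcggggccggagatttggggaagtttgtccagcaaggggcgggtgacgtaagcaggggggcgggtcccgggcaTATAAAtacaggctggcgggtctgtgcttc
DUSP1 (chr5:172771196-172771445, minus strand): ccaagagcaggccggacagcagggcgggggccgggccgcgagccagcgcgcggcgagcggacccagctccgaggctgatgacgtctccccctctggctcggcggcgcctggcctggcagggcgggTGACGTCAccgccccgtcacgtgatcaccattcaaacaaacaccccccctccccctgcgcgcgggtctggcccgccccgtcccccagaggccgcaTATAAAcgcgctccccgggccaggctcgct

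The EGR1 window held 2 CArG boxes, at -105 to -96 and -83 to -74 from the start, where 1.16% of all 35116 windows held any. It also held an EGR site, found in 8.41% of windows, and a STAT site, found in 6.57%. The octamer lay at -67 to -60 in JUN, -123 to -116 in ATF3 and -125 to -118 in DUSP1, and in 6.87% of all windows. ATF3 was the one member with the ATF4 site, at -191 to -184, which 3.14% of windows held. TATA boxes stood at -33 to -28 in FOS, -31 to -26 in JUNB and -30 to -25 in FOSB and DUSP1, and the other ATF3 window held one at -230 to -225, against 10.7% of windows with one anywhere. No window of a member matched the AP-1 site (6.57% of all windows), and those of IER2 and NR4A1 matched none of the 7 motifs. A match describes the letters and is not a measured site, and a missing match concerns only these 250 bases.

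The libraries held 18443749 to 32669995 reads in genes. Levels are in CPM, reads scaled to library size, and an undetected gene could be at up to 3 reads, or 0.0947 to 0.163 CPM, counting error only. The members were read between 13 times (FOSB) and 7930 times (ATF3) in a library, so none was at the limit of detection. Markers chosen for SUM190 were high in every library (ERBB2 1516 to 3736 CPM, EPCAM 305.7 to 441.3 CPM). Markers of other cell types were low but not all absent. PTPRC reached 5.96 CPM, CD14 reached 5.20 CPM and COL1A1 was at 4.31 CPM or more in every library, whereas CD3E, COL1A2 and COL3A1 were at most 0.505 CPM. The summed stromal markers were at 4.94 to 12.4 CPM. The sum of 4 immune markers, mostly CD68, was 18.0 and 19.1 CPM in the parental DMSO libraries, 38.8 and 35.0 in 10 nM paclitaxel and 28.0 and 25.6 in 1 µM doxorubicin, within 7.30 to 38.8 over all libraries, with CD3E at 0 in 24 of them. The endothelial sum was 2.83 and 3.58 CPM in parental DMSO and 8.87 and 8.60 in 1 µM doxorubicin. The part of these sums in any result was not tested. Several pairs of replicates differed along transcript GC content. The difference, replicate 2 minus 1, had a Spearman rho with GC across genes of 0.80 in parental DMSO, -0.73 in parental 1 µM doxorubicin, -0.69 in doxorubicin-resistant 350 nM, 0.68 in the parental combination and -0.67 in parental 10 nM paclitaxel. The median of the 10 members differed by a log2 of 0.23 in parental DMSO, -0.28 in 1 µM doxorubicin and -0.23 in 10 nM paclitaxel. The median of 13 mitochondrial genes differed by 0.91 in parental 2.5 nM paclitaxel and 0.91 in parental DMSO. Counts of calls against parental DMSO are also given without either of its libraries and after a correction of every library for GC content and transcript length. The share of all tested genes called moved under such settings too. For doxorubicin-resistant against parental DMSO it was 43.3% after that correction and 27.5% without it. A changed count of members is therefore not by itself particular to them. In bulk RNA, more cells that express a gene and more RNA per cell cannot be told apart.

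**Figure D1:**
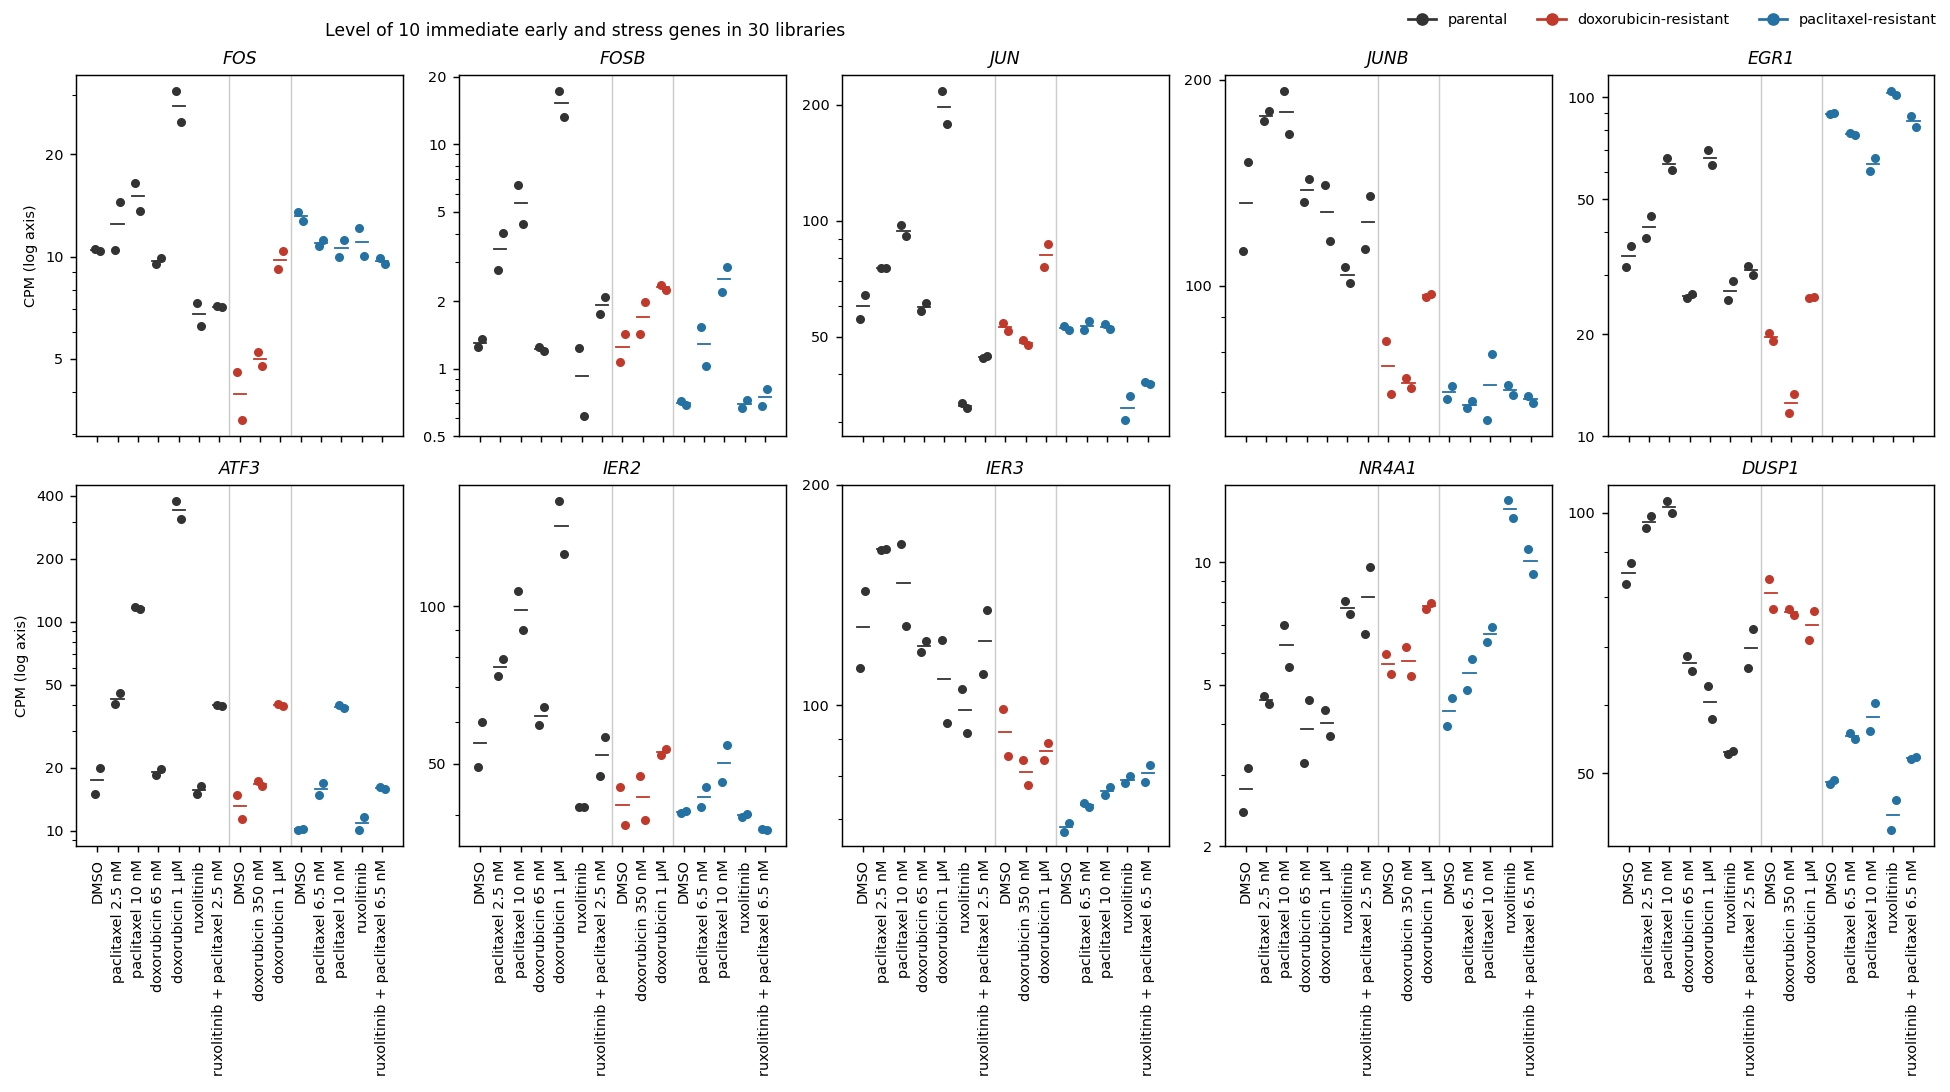
Levels of the 10 genes in CPM (log axis) in all 30 libraries, grouped by cell line and treatment; points are libraries and bars are the means of 2. ATF3 was highest in parental cells in 1 µM doxorubicin (377 and 312 CPM), EGR1 was high throughout the paclitaxel-resistant groups, and NR4A1 was highest in paclitaxel-resistant cells in ruxolitinib (14.2 and 12.9 CPM).

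The members differed in how far their group means ranged and in where they peaked. ATF3 ranged most, 33.9-fold, from 10.2 ± 0.111 CPM (SD, n = 2) in paclitaxel-resistant DMSO to 344 ± 46.6 CPM in parental cells in 1 µM doxorubicin. FOSB followed, with 21.9-fold between 0.696 ± 0.0406 CPM in paclitaxel-resistant ruxolitinib and 15.3 ± 2.87 CPM in parental 1 µM doxorubicin, and EGR1 with 8.26-fold. DUSP1 (2.26-fold), IER3 (2.39-fold) and JUNB (2.67-fold) ranged least. Parental cells in 1 µM doxorubicin were the highest group for FOS, FOSB, JUN, ATF3 and IER2, and parental cells in 10 nM paclitaxel came second for each of these 5. In the order of ATF3 levels the 3 groups at the top did not overlap with their neighbours. They were followed by parental ruxolitinib with paclitaxel (39.9 CPM), doxorubicin-resistant cells in 1 µM doxorubicin (39.8) and paclitaxel-resistant cells in 10 nM paclitaxel (39.3), which overlapped.

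EGR1 had another order: 4 of the 5 paclitaxel-resistant groups were at the top, from 103 ± 1.99 CPM in ruxolitinib down to 77.8 ± 0.861 CPM in 6.5 nM paclitaxel, and none of these neighbours overlapped. Parental cells in 1 µM doxorubicin (66.4 CPM), parental cells in 10 nM paclitaxel (63.6 CPM) and paclitaxel-resistant cells in 10 nM paclitaxel (63.4 CPM) came next and overlapped. The 3 doxorubicin-resistant groups were the lowest by their means, the highest of them overlapping with parental cells in 65 nM doxorubicin, down to 12.5 ± 1.15 CPM at 350 nM doxorubicin. NR4A1 was lowest in parental DMSO (2.78 ± 0.494 CPM), and 4 of its 5 highest groups had received ruxolitinib. For JUN, by contrast, those same 4 ruxolitinib groups were the lowest of all, from 44.4 CPM down to 32.8 CPM, with only the last 2 overlapping. JUNB and IER3 were higher in all 7 parental groups than in any resistant group by their means.

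Paclitaxel raised most members in parental cells, ATF3 and FOSB by the widest margin, and 5 of them more at 10 nM than at 2.5 nM. At 2.5 nM, 8 of 10 members rose and 0 fell, where of all tested genes 9.71% rose, 17.1% fell and 26.8% changed either way (12743 genes). At 10 nM 9 rose and 0 fell, where of all tested genes 20.1% rose, 28.1% fell and 48.2% changed either way. The median log2 fold change of the members was 0.40 and 0.74, against -0.015 and -0.045 over all tested genes. Log2 fold changes are differences of mean log2(CPM + 1), given with their standard error, and a call means an adjusted p under 0.05 from limma, by the Benjamini-Hochberg method over all tested genes. The added 1 makes them smaller than the ratio of CPM for low genes such as FOSB. Overlap between groups is given only to describe the libraries. With 2 libraries per group unchanged genes can also lie apart, and the share of all tested genes without overlap was not computed.

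ATF3 was at 15.0 and 19.9 CPM in the DMSO libraries, 40.3 and 45.4 CPM at 2.5 nM and 117 and 115 CPM at 10 nM. The 3 groups did not overlap. The rise was 1.26 ± 0.12 (adjusted p = 3.37e-07) and 2.68 ± 0.12 (adjusted p = 1.1e-13), and 10 nM was above 2.5 nM by 1.42 ± 0.12. Among AP-1 subunits, FOSB stood at 1.25 and 1.35 CPM in DMSO, 2.76 and 4.03 at 2.5 nM and 6.56 and 4.41 at 10 nM, again without overlap. It rose by 0.92 ± 0.18 and 1.47 ± 0.18, a 4.21-fold ratio of CPM at 10 nM. JUN was at 55.8 and 64.2 CPM in DMSO, 75.4 and 75.3 at 2.5 nM and 97.5 and 91.2 at 10 nM, and rose by 0.33 ± 0.090 and 0.65 ± 0.090. FOS rose by 0.48 ± 0.14 at 10 nM, and at 2.5 nM its difference of 0.22 ± 0.14 did not pass (adjusted p = 0.244), with overlapping groups. JUNB rose by 0.44 ± 0.12 and 0.45 ± 0.12 and did not pass between the doses (0.016 ± 0.12, adjusted p = 0.942).

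EGR1 was at 31.6 and 36.5 CPM in DMSO, 38.5 and 44.7 at 2.5 nM and 66.3 and 60.9 at 10 nM, with no overlap between groups. It rose by 0.28 ± 0.091 and 0.88 ± 0.091, and the step between the doses was 0.60 ± 0.091 (adjusted p = 5.2e-05). NR4A1 was at 2.43 and 3.13 CPM in DMSO, 4.70 and 4.49 at 2.5 nM and 7.01 and 5.54 at 10 nM, and rose by 0.57 ± 0.15 and 0.94 ± 0.15. IER2, a nuclear protein of the early response, rose by 0.48 ± 0.12 and 0.83 ± 0.12. IER3, a regulator of survival signalling, rose by 0.36 ± 0.13 at 2.5 nM, while at 10 nM the groups overlapped and the difference was 0.20 ± 0.13 (adjusted p = 0.201). DUSP1 rose by 0.25 ± 0.073 at 10 nM. Of the members, 5 were higher at 10 nM than at 2.5 nM (of all tested genes 12.2% were higher, 15.4% were lower and 27.5% differed either way), namely FOSB, JUN, EGR1, ATF3 and IER2.

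At 2.5 nM the share of all tested genes called was 26.8%, but 7.85% with only parental libraries and 26.3% after GC and length correction. The count of members, like this share, depended on single libraries. It was 2 without replicate 1 of parental DMSO, 9 without replicate 2, 1 without replicate 2 of the 2.5 nM group, 3 with only parental libraries in the fit and 6 after GC and length correction. ATF3 passed in each of these. At 10 nM FOS, JUNB and DUSP1 were lost without replicate 1 of the drug group, and JUNB and DUSP1 also without replicate 1 of DMSO. The count there was 7 and 10 without either DMSO library, 9 after the correction and 6 without replicate 1 of the 10 nM group. The count between doses was 2 without replicate 1 of the 2.5 nM group and 2 without replicate 1 of the 10 nM group.

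In parental cells 1 µM doxorubicin gave the highest levels of ATF3, FOSB, JUN, FOS and IER2 in the series, whereas 65 nM did not raise any member past the threshold. At 1 µM, 7 members rose and 1 fell, where of all tested genes 34.3% rose, 41.5% fell and 75.8% changed either way. With most genes called, a call at this dose says little by itself, and the sizes carry the description. The median over the members was 1.13, against -0.073 over all tested genes. ATF3 rose from 15.0 and 19.9 CPM to 377 and 312 CPM, by 4.23 ± 0.12 (adjusted p = 8.86e-19), a 19.8-fold ratio of mean CPM. FOSB rose from 1.25 and 1.35 to 17.3 and 13.2 CPM, by 2.81 ± 0.18 and 11.7-fold in CPM. Treated and DMSO libraries did not overlap for either gene. The count of 8 calls was 8 without replicate 1 of parental DMSO, 8 without replicate 2 and 10 after GC and length correction, where JUNB and IER3 were added.

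The AP-1 subunits were not alike at 1 µM doxorubicin. JUN rose from 55.8 and 64.2 CPM to 217 and 179 CPM, by 1.70 ± 0.090, and FOS from 10.5 and 10.4 to 30.7 and 24.9 CPM, by 1.32 ± 0.14. JUNB was at 113 and 151 CPM in DMSO and 140 and 116 CPM in drug, so the groups overlapped, with a difference of -0.030 ± 0.12 (adjusted p = 0.833). The sign of the JUNB value turned with the scaling (0.065 with median-of-ratios) and after GC and length correction (0.15, adjusted p = 0.028, where its adjusted p over all alternatives ran from 0.028 to 0.88). EGR1 rose from 31.6 and 36.5 to 69.7 and 63.1 CPM, by 0.95 ± 0.091, and IER2 rose by 1.36 ± 0.12. NR4A1 rose by 0.42 ± 0.15, but by 0.28 without replicate 1 of parental DMSO, and the call was lost there, without replicate 1 of the drug group and with only parental libraries in the fit (without the DMSO library, adjusted p = 0.173; lowest over all alternatives 0.000242). DUSP1, which dephosphorylates MAP kinases, fell by 0.49 ± 0.073, from 82.8 and 87.5 CPM to 63.1 and 57.8 CPM. IER3 was at -0.23 ± 0.13 and overlapped. Without replicate 1 of parental DMSO it was at -0.41 and took the place of NR4A1 among the calls, so the unchanged count there was not of the same members.

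At 65 nM, 2 members fell, where of all tested genes 5.21% rose, 5.94% fell and 11.2% changed either way. EGR1 was at 25.6 and 26.2 CPM, below both DMSO libraries, and fell by 0.38 ± 0.091 (adjusted p = 0.00879). DUSP1 was at 68.4 and 65.7 CPM and fell by 0.34 ± 0.073. ATF3 was at 18.4 and 19.8 CPM and overlapped with DMSO (0.14 ± 0.12, adjusted p = 0.5). The count was 2 without replicate 1 of parental DMSO, 1 without replicate 2 (EGR1 being lost), 2 after GC and length correction, 0 without replicate 2 of the 65 nM group (limma, with 3 members at an unadjusted p under 0.05 in the full set, and 2 called by voom) and 0 with only parental libraries. From 65 nM to 1 µM, 6 members rose (of all tested genes 33.8% were higher, 40.1% were lower and 73.9% differed either way), namely FOS, FOSB, JUN, EGR1, ATF3 and IER2, with ATF3 at 4.10 ± 0.12 and EGR1 at 1.32 ± 0.091.

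The higher doses of the 2 drugs in parental cells were also compared directly. Relative to 10 nM paclitaxel, 1 µM doxorubicin had 5 members higher and 4 lower, where of all tested genes 32.5% were higher, 36.7% were lower and 69.2% differed either way. With most genes called and both directions common, these calls say little by themselves, and the sizes carry the description. Higher in doxorubicin were ATF3 (1.55 ± 0.12), FOSB (1.34 ± 0.18), JUN (1.06 ± 0.090), FOS (0.84 ± 0.14) and IER2 (0.52 ± 0.12). Lower in doxorubicin were DUSP1 (-0.74 ± 0.073), NR4A1 (-0.53 ± 0.15), JUNB (-0.48 ± 0.12) and IER3 (-0.43 ± 0.13). IER3 was lost without replicate 1 of paclitaxel or replicate 2 of doxorubicin, and NR4A1 without the first of these. EGR1 overlapped between the drugs (0.062 ± 0.091, adjusted p = 0.557). The doses of the 2 drugs are not matched to each other.

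In DMSO the resistant lines had lower levels of several members than parental cells, and they differed from each other most in EGR1 and FOS. In doxorubicin-resistant cells 6 members were lower and 1 higher, where of all tested genes 12.3% were higher, 15.2% were lower and 27.5% differed either way. In paclitaxel-resistant cells 5 were lower and 2 higher, where of all tested genes 16.3% were higher, 16.3% were lower and 32.6% differed either way. Both comparisons share the parental DMSO libraries. EGR1 was at 31.6 and 36.5 CPM in parental, 20.2 and 19.1 in doxorubicin-resistant and 89.1 and 90.1 in paclitaxel-resistant cells. The difference from parental cells was -0.76 ± 0.091 (adjusted p = 7.05e-07) in the first line and 1.37 ± 0.091 (adjusted p = 2.85e-11) in the second, a 2.63-fold ratio of CPM. FOS was at 10.5 and 10.4 CPM in parental, 4.57 and 3.31 in doxorubicin-resistant and 13.6 and 12.7 in paclitaxel-resistant cells. The difference was -1.23 ± 0.14 (adjusted p = 3.59e-07) in the doxorubicin-resistant line, while that of 0.30 ± 0.14 in the other line did not pass (adjusted p = 0.102).

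JUNB was lower in both lines, with differences of -0.77 ± 0.12 and -0.89 ± 0.12, and stood at 83.2 and 69.6 CPM in doxorubicin-resistant, 68.4 and 71.5 in paclitaxel-resistant and 113 and 151 in parental cells. JUN had no call in either line (-0.17 ± 0.090 and -0.18 ± 0.090, adjusted p = 0.177 and 0.14), nor had FOSB (-0.042 ± 0.18 and -0.44 ± 0.18). IER3 (-0.46 ± 0.13 and -0.89 ± 0.13), IER2 (-0.39 ± 0.12 and -0.42 ± 0.12) and ATF3 (-0.38 ± 0.12 and -0.71 ± 0.12) were lower in the doxorubicin- and paclitaxel-resistant lines in that order. NR4A1 was higher in both, at 5.94 and 5.31 CPM in doxorubicin-resistant, 3.96 and 4.65 in paclitaxel-resistant and 2.43 and 3.13 in parental cells, or by 0.81 ± 0.15 and 0.49 ± 0.15. DUSP1 was lower in paclitaxel-resistant cells (48.6 and 49.1 against 82.8 and 87.5 CPM, -0.79 ± 0.073) and at -0.078 ± 0.073 with overlap in the other line.

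Between the resistant lines, doxorubicin-resistant cells were lower in EGR1 (-2.13 ± 0.091) and FOS (-1.53 ± 0.14), and higher in DUSP1 (0.71 ± 0.073), IER3 (0.42 ± 0.13) and ATF3 (0.33 ± 0.12). That is 2 lower and 3 higher, where of all tested genes 15.6% were higher, 18.4% were lower and 34.0% differed either way. The ATF3 and IER3 calls were lost without replicate 1 of doxorubicin-resistant DMSO (count 3) and without replicate 1 of paclitaxel-resistant DMSO (count 3). The ATF3 value fell to 0.15 in the first case (adjusted p = 0.475, and 0.00641 to 0.475 over all alternatives), and its call held in 6 of 11 alternatives. For doxorubicin-resistant against parental cells the count of 7 was 7 without replicate 1 of parental DMSO and 7 after GC and length correction. It became 4 without replicate 2 of parental DMSO and 4 without replicate 2 of the resistant line, losing ATF3, IER2 and IER3 in both. EGR1, FOS, JUNB and NR4A1 kept their calls there. For paclitaxel-resistant against parental cells the count of 7 was 7 without replicate 1 of parental DMSO, 6 without replicate 2 and 9 after GC and length correction. NR4A1 was not called without replicate 1 of parental DMSO or replicate 2 of resistant DMSO, nor IER2 without replicate 2 of the first or replicate 1 of the second. Without replicate 1 of parental DMSO, JUN was at -0.28 and took the place of NR4A1 among the calls.

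Doxorubicin-resistant cells also raised most members at 1 µM doxorubicin, but ATF3, FOSB, JUN, IER2 and EGR1 by less than parental cells at that dose. Against their own DMSO, 8 members rose and 0 fell, where of all tested genes 19.1% rose, 19.9% fell and 39.1% changed either way. ATF3 went from 14.9 and 11.4 CPM to 40.3 and 39.3 CPM, a rise of 1.54 ± 0.12 (adjusted p = 1.15e-09). FOS went from 4.57 and 3.31 to 9.21 and 10.4 CPM, a rise of 1.14 ± 0.14. JUN went from 54.3 and 51.9 to 76.0 and 86.9 CPM, a rise of 0.61 ± 0.090. The drug and DMSO libraries of these genes did not overlap. FOSB (0.56 ± 0.18), NR4A1 (0.42 ± 0.15), EGR1 (0.37 ± 0.091), JUNB (0.34 ± 0.12) and IER2 (0.34 ± 0.12) rose by less. The count was 5 without replicate 2 of the DMSO group, 4 and 4 without either drug library, and 5 with no filter on low values. NR4A1 was lost in all of these, and IER2 and JUNB too. FOSB lost its call without either drug library, and also without replicate 1 of the DMSO group, where its value was 0.45. The endothelial marker sum was 2.25 and 2.38 CPM in DMSO and 5.36 and 5.33 CPM at this dose, and the immune sum 22.3 and 19.7 and 29.9 and 23.7 CPM, without overlap; their part in these rises was not tested.

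The difference between the lines in the response to 1 µM doxorubicin was tested itself. The response was smaller in the resistant line for 5 members and higher for 1. Of all tested genes 33.2% had a higher response, 25.1% had a lower response and 58.3% differed either way. With most genes called here too, the calls say little by themselves, and the sizes carry the description. The median over the members was -0.38, against 0.079 over all tested genes. ATF3 differed by -2.69 ± 0.17 (adjusted p = 1.11e-11), FOSB by -2.25 ± 0.25, JUN by -1.10 ± 0.13, IER2 by -1.02 ± 0.17 and EGR1 by -0.58 ± 0.13. DUSP1, which fell in parental cells, differed by 0.37 ± 0.10. FOS did not pass (-0.19 ± 0.20, adjusted p = 0.434), and its level at this dose was nevertheless lower in the resistant line, 9.21 and 10.4 against 30.7 and 24.9 CPM. The count of 6 was 7 without replicate 1 of parental DMSO, 6 without replicate 2 and 7 after GC and length correction. Set side by side under 1 µM doxorubicin, the resistant line was lower in 8 members and higher in 2, where of all tested genes 38.9% were higher, 32.5% were lower and 71.4% differed either way. The higher members were NR4A1 (0.81 ± 0.15) and DUSP1 (0.29 ± 0.073). ATF3 differed there by -3.08 ± 0.12, with 8.66 times as much CPM in parental cells. IER3 lost its call without any of 3 of the 4 libraries and JUNB without replicate 1 of the parental group.

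**Figure D2:**
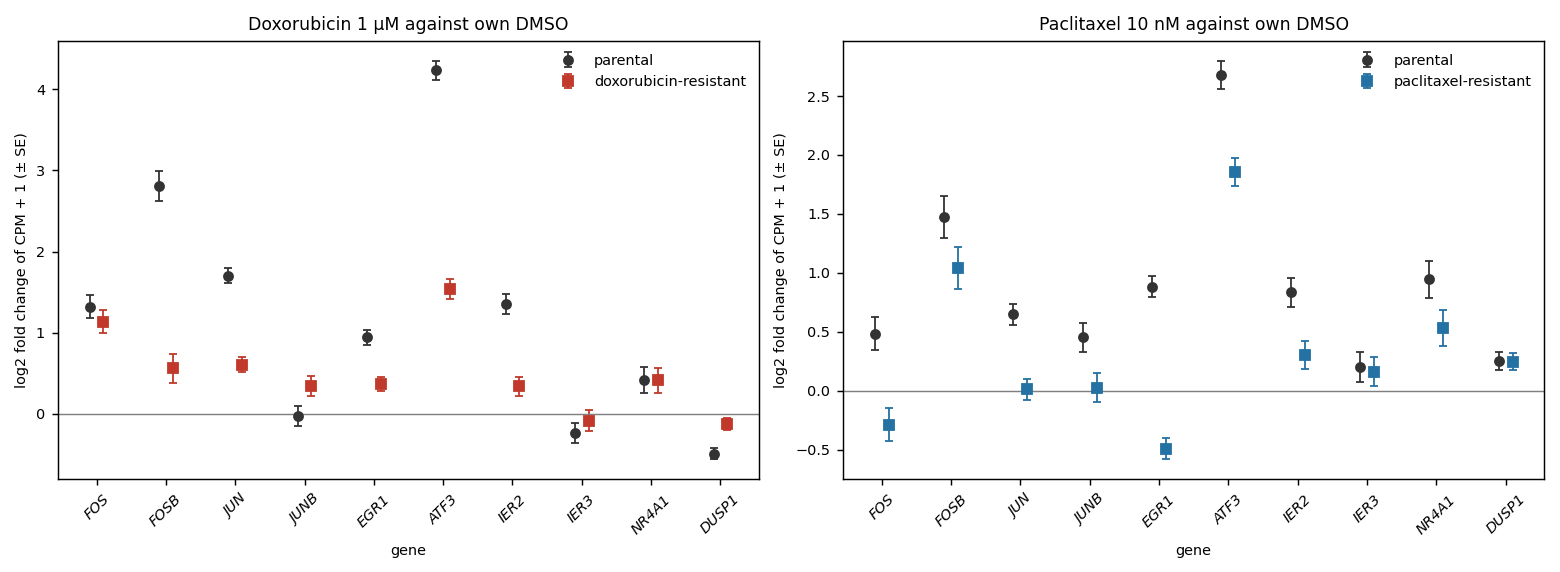
Log2 fold changes (± SE) of the 10 genes against the same line's DMSO, for 1 µM doxorubicin (left) and 10 nM paclitaxel (right), in parental cells (circles) and the resistant line (squares); the axes differ. ATF3 lay at 4.23 and 1.54 in doxorubicin and at 2.68 and 1.85 in paclitaxel, and EGR1 in paclitaxel at 0.88 and -0.49.

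At 350 nM doxorubicin, the resistant line changed in one member. EGR1 fell by 0.62 ± 0.091 (adjusted p = 0.000259), from 20.2 and 19.1 to 11.7 and 13.3 CPM, and at 1 µM it was at 25.7 and 25.7 CPM. At 350 nM, of all tested genes 2.39% rose, 1.43% fell and 3.81% changed either way. EGR1 was therefore below DMSO at the lower dose and above it at the higher dose, with a step of 0.98 ± 0.091 between them (adjusted p = 9.18e-08). Parental EGR1 had the same order, lower than DMSO at 65 nM and higher at 1 µM. Between 350 nM and 1 µM, 5 members rose (of all tested genes 9.97% were higher, 11.6% were lower and 21.5% differed either way): ATF3 (1.20 ± 0.12), EGR1, FOS (0.84 ± 0.14), JUN (0.74 ± 0.090) and JUNB (0.42 ± 0.12), whose call was lost without any of 3 of the 4 libraries.

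Paclitaxel-resistant cells raised ATF3 and FOSB in 10 nM paclitaxel while EGR1 fell. In all 4 members rose and 1 fell, where of all tested genes 6.62% rose, 6.99% fell and 13.6% changed either way. ATF3 was at 10.1 and 10.2 CPM in DMSO, 14.9 and 16.9 at 6.5 nM and 39.9 and 38.7 at 10 nM, and the groups did not overlap. Its rise was 0.60 ± 0.12 (adjusted p = 0.0493) at 6.5 nM and 1.85 ± 0.12 (adjusted p = 3.19e-10) at 10 nM. ATF3 was the one member called at 6.5 nM, where of all tested genes 0.0706% rose, 0.0235% fell and 0.0942% changed either way. The call was lost without any 1 of the 4 libraries compared (count 0, with 4 members at an unadjusted p under 0.05 in limma with all libraries, and 0 called by voom). FOSB rose by 1.04 ± 0.18 at 10 nM, from 0.717 and 0.688 to 2.19 and 2.85 CPM, which is 3.59-fold in CPM. EGR1 was at 89.1 and 90.1 CPM in DMSO, 78.4 and 77.2 at 6.5 nM and 60.7 and 66.1 at 10 nM, and fell by 0.49 ± 0.091 at 10 nM. Marker sums moved with this group without overlap. From DMSO to 10 nM, the mitochondrial sum was 13267 and 9473 against 15518 and 19506 CPM, the endothelial sum 4.47 and 4.81 against 8.02 and 6.95 CPM and the immune sum 9.70 and 10.3 against 13.7 and 14.9 CPM. Their part in these changes was not tested.

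JUN (0.0094 ± 0.090) and JUNB (0.025 ± 0.12) had overlapping groups and no call, and FOS was at -0.29 ± 0.14 (adjusted p = 0.174). NR4A1 rose by 0.53 ± 0.15 and DUSP1 by 0.24 ± 0.073, and the NR4A1 call was lost without any 1 of the 4 libraries compared. The DUSP1 call was lost without either DMSO library and without replicate 2 of the 10 nM group. The count of calls at 10 nM was 3 without replicate 1 of DMSO, 3 without replicate 2 of DMSO and 3 without replicate 2 of the 10 nM group, and 8 with only paclitaxel-resistant libraries in the fit. From 6.5 to 10 nM, 2 members rose (of all tested genes 2.02% were higher, 2.45% were lower and 4.47% differed either way), ATF3 by 1.26 ± 0.12 and FOSB by 0.63 ± 0.18. The FOSB call was lost without any 1 of the 4 libraries compared, so that the count was then 1.

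The response to 10 nM paclitaxel was lower in the resistant than in the parental line for 5 members by the test of the difference, where of all tested genes 6.87% had a higher response, 3.88% had a lower response and 10.8% differed either way. EGR1, which rose in parental and fell in resistant cells, differed by -1.38 ± 0.13 (adjusted p = 4e-07). ATF3 differed by -0.83 ± 0.17, FOS by -0.77 ± 0.20, JUN by -0.64 ± 0.13 and IER2 by -0.53 ± 0.17. FOSB did not pass (-0.43 ± 0.25, adjusted p = 0.302). IER2 lost its call under 5 of the 7 alternative settings, the fit with the replicate number as a block among them (-0.53). The count was 4 without replicate 1 of parental DMSO, 6 without replicate 2 and 6 after GC and length correction. It was 3 without replicate 1 of parental 10 nM paclitaxel, of resistant DMSO or of resistant 10 nM paclitaxel, FOS and IER2 being lost each time. Under 10 nM paclitaxel the resistant line was lower in 8 members, where of all tested genes 27.3% were higher, 22.3% were lower and 49.7% differed either way. ATF3 (-1.54 ± 0.12) and JUNB (-1.32 ± 0.12) were among them, and FOS lost its call without replicate 1 of either group. EGR1, at 60.7 and 66.1 against 66.3 and 60.9 CPM, overlapped there (-0.0041 ± 0.091).

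**Figure D3:**
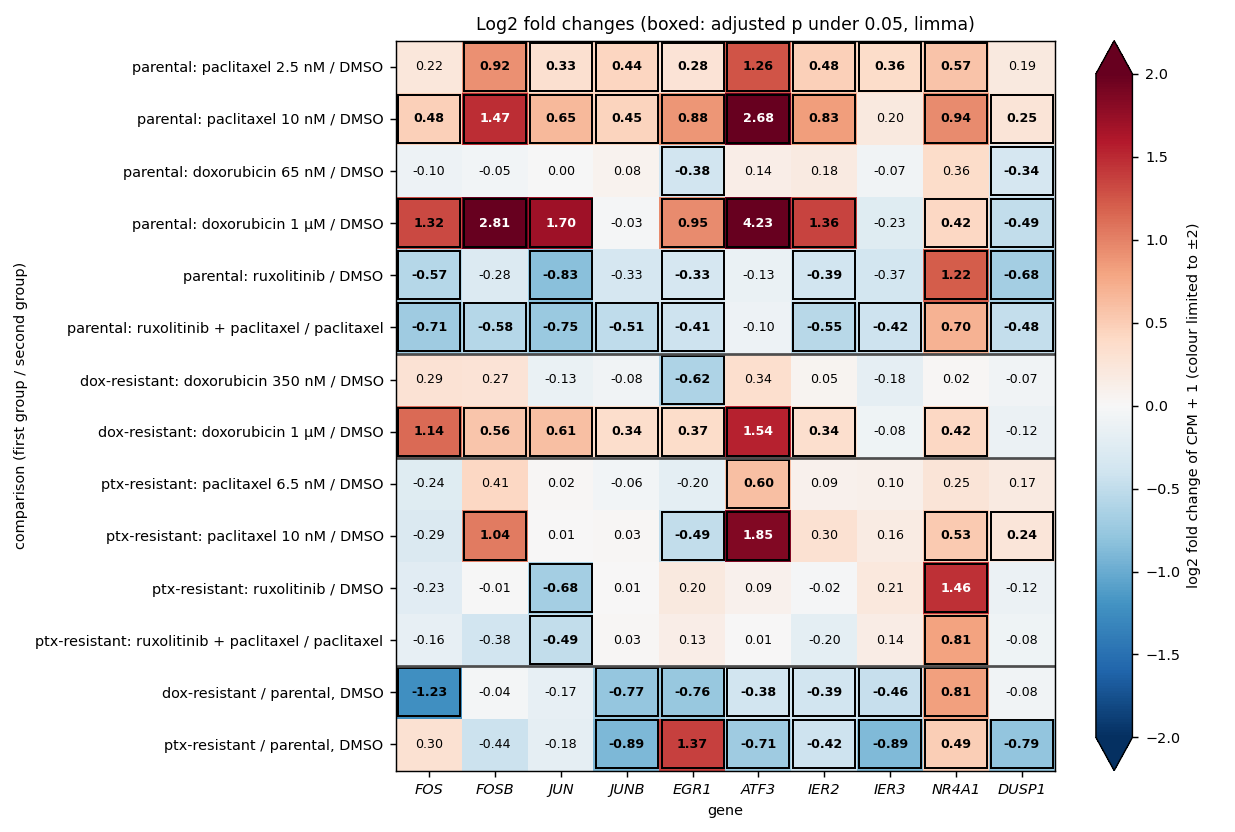
Log2 fold changes of the 10 genes (columns) in 14 comparisons (rows, first group over second), with colour limited to ±2 and boxes around values with a limma adjusted p under 0.05. ATF3 is the one gene boxed in each of the rows for paclitaxel alone and for 1 µM doxorubicin, and NR4A1 and JUN are boxed with opposite signs in all 4 rows for ruxolitinib.

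Ruxolitinib raised NR4A1 and lowered JUN in both lines, alone and with paclitaxel. NR4A1 went from 2.43 and 3.13 CPM to 8.02 and 7.47 CPM in parental cells and from 3.96 and 4.65 to 14.2 and 12.9 CPM in paclitaxel-resistant cells. The rises were 1.22 ± 0.15 (adjusted p = 5.74e-06) and 1.46 ± 0.15 (adjusted p = 1.2e-06), or 2.79- and 3.14-fold in CPM. JUN went from 55.8 and 64.2 to 33.7 and 32.6 CPM and from 53.4 and 52.2 to 30.5 and 35.0 CPM. The differences were -0.83 ± 0.090 (adjusted p = 5.32e-07) and -0.68 ± 0.090 (adjusted p = 2.33e-05). In each of these 4 contrasts every treated library lay beyond both DMSO libraries. The immune marker sum was 18.0 and 19.1 CPM in parental DMSO and 11.6 and 10.7 in ruxolitinib, and 9.70 and 10.3 and 7.30 and 8.84 in paclitaxel-resistant cells, and its part was not tested.

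In parental cells without paclitaxel, 5 members fell under ruxolitinib and 1 rose, where of all tested genes 5.51% rose, 7.71% fell and 13.2% changed either way. Besides JUN, those that fell were DUSP1 (-0.68 ± 0.073), FOS (-0.57 ± 0.14), IER2 (-0.39 ± 0.12) and EGR1 (-0.33 ± 0.091). DUSP1 went from 82.8 and 87.5 to 52.7 and 53.1 CPM and FOS from 10.5 and 10.4 to 7.28 and 6.23 CPM, without overlap. ATF3 overlapped with DMSO (-0.13 ± 0.12, adjusted p = 0.535). The count of 6 was 8 without replicate 1 of parental DMSO, 4 without replicate 2 and 8 after GC and length correction, EGR1 and IER2 being lost without replicate 2. IER2 was also lost without either ruxolitinib library, EGR1 without replicate 1 and FOS without replicate 2 of that group. In paclitaxel-resistant cells the calls were JUN and NR4A1, where of all tested genes 2.86% rose, 4.06% fell and 6.92% changed either way. The test of the difference between lines called DUSP1 (0.55 ± 0.10, adjusted p = 0.00963), where of all tested genes 0.298% had a higher response, 0.110% had a lower response and 0.408% differed either way. That call was lost (count 0) without any 1 of 5 libraries, namely replicate 2 of parental DMSO, either parental ruxolitinib library, replicate 1 of resistant DMSO or replicate 2 of resistant ruxolitinib, and without replicate 1 of parental DMSO the count was 2. After GC and length correction it was 3, with EGR1 and IER3 added. FOS (0.33 ± 0.20), EGR1 (0.53 ± 0.13) and JUN (0.16 ± 0.13) were not shown to differ between the lines.

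With 2.5 nM paclitaxel, ruxolitinib lowered 8 members in parental cells relative to paclitaxel alone and raised 1, where of all tested genes 15.1% rose, 12.9% fell and 27.9% changed either way. JUN was at 75.4 and 75.3 CPM in paclitaxel and 44.1 and 44.7 CPM in the combination, and fell by 0.75 ± 0.090. FOS fell by 0.71 ± 0.14, from 10.5 and 14.5 to 7.16 and 7.09 CPM. The others that fell were FOSB (-0.58 ± 0.18), IER2 (-0.55 ± 0.12), JUNB (-0.51 ± 0.12), DUSP1 (-0.48 ± 0.073), IER3 (-0.42 ± 0.13) and EGR1 (-0.41 ± 0.091). NR4A1 rose by 0.70 ± 0.15, a call lost without replicate 2 of the combination. Without replicate 2 of the paclitaxel group FOS, FOSB, JUNB, EGR1 and IER3 lost their calls. Without replicate 1 of the combination FOSB, JUNB, IER2 and IER3 lost theirs. JUN and DUSP1 kept their calls under all alternatives. ATF3 was at 40.3 and 45.4 CPM in paclitaxel and 40.1 and 39.6 CPM in the combination, a difference of -0.098 ± 0.12 (adjusted p = 0.557). The count of 9 was 4 without replicate 2 of the paclitaxel group and 5 without replicate 1 of the combination. In paclitaxel-resistant cells with 6.5 nM paclitaxel, JUN fell by 0.49 ± 0.090 and NR4A1 rose by 0.81 ± 0.15, where of all tested genes 1.16% rose, 2.12% fell and 3.28% changed either way. The NR4A1 call was lost without replicate 1 of either group and the JUN call without replicate 2 of the paclitaxel group, which left a count of 1 each time.

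In parental cells ATF3 was at 15.0 and 16.3 CPM in ruxolitinib and 40.1 and 39.6 CPM in the combination with paclitaxel. The limma difference was 1.30 ± 0.12 (adjusted p = 5.96e-07). JUN (0.41 ± 0.090) and DUSP1 (0.39 ± 0.073) were higher in the combination too, so that 3 members were called. Of all tested genes 2.90% were higher, 1.45% were lower and 4.35% differed either way. The JUN call was lost without any 1 of the 4 libraries compared. The count was 7 after GC and length correction and 1 without replicate 2 of the combination. In paclitaxel-resistant cells limma called 0 members between ruxolitinib and its combination with 6.5 nM paclitaxel, with 5 at an unadjusted p under 0.05. Voom called 0. Of all tested genes 0.0392% were higher, 0% were lower and 0.0392% differed either way. ATF3 was at 10.1 and 11.6 CPM in ruxolitinib and 16.2 and 15.8 CPM in the combination, without overlap (0.52 ± 0.12, adjusted p = 0.152). In both lines the labels give the ruxolitinib group and the combination different ruxolitinib doses, 15 µM and 15 nM. The added paclitaxel and the lower labelled ruxolitinib dose therefore cannot be told apart in these comparisons.

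**Figure D4:**
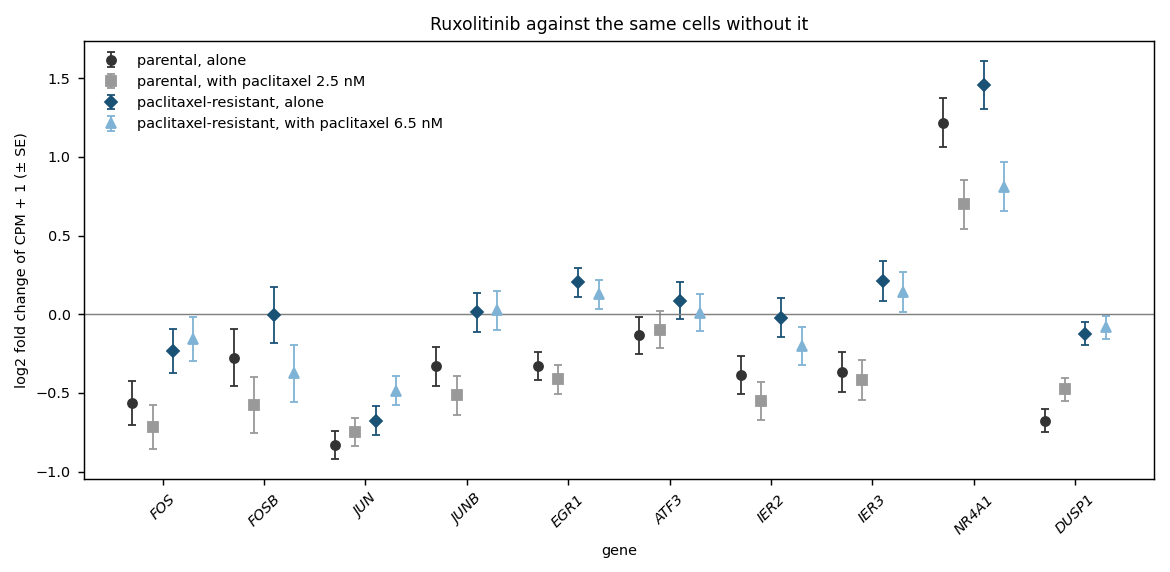
Log2 fold changes (± SE) of the 10 genes for ruxolitinib against the same cells without it, in parental and paclitaxel-resistant cells, alone (labelled 15 µM) and with paclitaxel (labelled 15 nM). NR4A1 lay above 0 (1.22, 0.70, 1.46 and 0.81) and JUN below 0 (-0.83, -0.75, -0.68 and -0.49) in all 4.

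Other genes of the same pathways were followed in 6 lists. Of 10 tested partners of AP-1 and small MAF factors, 6 rose and 2 fell in parental cells at 10 nM paclitaxel (median 0.49). At 1 µM doxorubicin 4 rose and 2 fell (median 0.17). Of all tested genes 20.1% rose, 28.1% fell and 48.2% changed either way at 10 nM paclitaxel. The shares at 1 µM doxorubicin were 34.3%, 41.5% and 75.8%. With so many genes called, the counts of a list say little by themselves. MAFF, a small MAF protein that lacks an activation domain, rose by 2.65 ± 0.14 and 3.49 ± 0.14, and FOSL1, the AP-1 subunit Fra-1, by 1.62 ± 0.17 at 10 nM paclitaxel. JDP2, a repressor of AP-1, changed by -0.77 and -1.96. In DMSO, FOSL1 was lower in both resistant lines (-1.17 in doxorubicin-resistant, -0.72 in paclitaxel-resistant), as was FOSL2 (-0.84 and -0.93). The difference in response between lines was negative for MAFF in both drugs, -2.47 ± 0.19 for 1 µM doxorubicin and -1.59 ± 0.19 for 10 nM paclitaxel.

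Of 5 tested EGR and NR4A relatives and corepressors, EGR2 rose by 0.81 and the orphan receptor NR4A3 by 1.17 at 10 nM paclitaxel in parental cells, and by 1.57 and 1.06 at 1 µM doxorubicin. NR4A2 rose with ruxolitinib in parental (0.56 ± 0.090) and paclitaxel-resistant cells (0.58 ± 0.090), as NR4A1 did, and fell at 1 µM doxorubicin in parental cells (-0.86 ± 0.090). NAB1 and NAB2, corepressors that bind EGR1, were higher in paclitaxel-resistant than in parental DMSO (0.59 and 0.74). Of 27 further early response genes, 17 rose and 3 fell at 10 nM paclitaxel (median 0.55). At 1 µM doxorubicin 17 rose and 8 fell (median 0.60). Of all tested genes 20.1% rose and 28.1% fell at 10 nM paclitaxel, and 34.3% rose and 41.5% fell at 1 µM doxorubicin. Either way 48.2% and 75.8% changed. ARC changed by 1.71, the small GTPase RHOB by 1.45 and the growth arrest gene GADD45B by 1.03 in paclitaxel. GADD45B (2.37), IER5 (2.22) and the kinase SGK1 (2.02) led in doxorubicin. Under ruxolitinib alone 12 of the 27 fell and 2 rose in parental cells, KLF6 by -0.79 and KLF2 by 0.87. There 5.51% of all tested genes rose and 7.71% fell. In paclitaxel-resistant cells 6 of the 27 fell and 1 rose, where of all tested genes 2.86% rose and 4.06% fell. The 27 genes were not shown to differ between the lines in their response.

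Of 17 MAP kinase phosphatases and ERK feedback genes, 8 rose and 2 fell at 10 nM paclitaxel in parental cells. At 1 µM doxorubicin 9 rose and 6 fell. Of all tested genes 20.1% rose and 28.1% fell at 10 nM paclitaxel, and 34.3% rose and 41.5% fell at 1 µM doxorubicin. Either way 48.2% and 75.8% changed, so the counts of this list say little by themselves. The ERK feedback inhibitor SPRY4 rose by 1.29 ± 0.099 and 1.67 ± 0.099, DUSP5 by 0.96 in paclitaxel, and DUSP4 changed by -1.37 in doxorubicin. In paclitaxel-resistant DMSO, where EGR1 was high, SPRY4 (1.36) and the ETS factor ETV5 (1.68) were higher than in parental cells, while SPRY1 (-0.99) and DUSP5 (-0.84) were lower. SPRY4 was also higher in doxorubicin-resistant DMSO (1.24), where EGR1 was low. Of 22 MAP kinases and activators of the serum response, 9 fell and 2 rose at 10 nM paclitaxel. At 1 µM doxorubicin 14 fell and 2 rose (median -0.54). With 48.2% of all tested genes changed either way in paclitaxel and 75.8% in doxorubicin, these counts say little by themselves. MAP2K6, a kinase of p38, changed by -1.65 and -2.65, and MAP3K5, the stress kinase ASK1, by -2.37 in doxorubicin.

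Of 13 genes of the integrated stress response, which includes ATF3 among its targets, 5 rose and 6 fell at 1 µM doxorubicin in parental cells. At 10 nM paclitaxel 5 rose and 1 fell. Of all tested genes 34.3% rose, 41.5% fell and 75.8% changed either way at 1 µM doxorubicin. The shares at 10 nM paclitaxel were 20.1%, 28.1% and 48.2%, so these counts say little by themselves. PPP1R15A, which directs dephosphorylation of the initiation factor eIF2, rose by 4.10 ± 0.16 and 2.60 ± 0.16, and DDIT3, which encodes CHOP, by 3.25 ± 0.11 and 1.30 ± 0.11. In doxorubicin TRIB3 (-1.58) and the mTOR inhibitor gene DDIT4 (-3.16) fell. Under ruxolitinib, where ATF3 had no call, 7 of the 13 rose and 2 fell in parental and 6 rose in paclitaxel-resistant cells. Asparagine synthetase ASNS rose by 1.11 ± 0.10 and 0.58 ± 0.10. Of all tested genes 5.51% rose and 7.71% fell in parental cells, and 2.86% rose and 4.06% fell in paclitaxel-resistant cells. Counts for lists are read against the shares of all tested genes given above for each comparison.

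Across the 15 group means, which share libraries with all results above, the members fell into differing patterns. These correlations are descriptions over 15 groups. The highest of the 45 pairs was FOSB with ATF3 (Pearson r 0.98), and FOSB, ATF3, IER2 and JUN had r from 0.86 to 0.98 with each other. JUNB and IER3 ran together (0.96), and DUSP1 was nearest to IER3 (0.75). EGR1 was near 0 with JUN (0.05), FOSB (0.07) and ATF3 (0.12), and was highest with FOS (0.68). NR4A1 was negative with 8 of the other 9 members, lowest with JUN (-0.53), and positive with EGR1 (0.23). The median r of the pairs was 0.43.

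Among 10133 other genes with a mean of at least 5 CPM, those most like each member by Pearson r over the 15 group means were as follows. ATF3 was closest to PPP1R15A (0.99), FLCN (0.99) and GADD45A (0.98). For FOSB they were PPP1R15A (0.98), TRIM39 (0.98) and NR1D1 (0.98), where NR1D1 encodes the nuclear receptor REV-ERB alpha. JUN was nearest to PTGER4 (0.96), BTN2A1 (0.96) and GBP3 (0.96), FOS to PTPN6 (0.93), NCAPH2 (0.91) and PIP5K1A (0.91), and JUNB to ITGA5 (0.98), PLIN2 (0.97) and FOSL2 (0.97). EGR1 was nearest to RNF168 (0.94), RBCK1 (0.93) and ETV1 (0.93), the last an ETS family factor. IER2 was nearest to FEM1A (0.99), MED26 (0.99) and SERTAD1 (0.99), IER3 to ITGA5 (0.96), DPP9 (0.95) and ARHGEF18 (0.94) and DUSP1 to OGFR (0.93), RFFL (0.92) and XDH (0.91). NR4A1 had the loosest matches, GREB1 (0.87), CCBL1 (0.86) and S100P (0.82). PPP1R15A thus headed the list for both ATF3 and FOSB, and ITGA5, an integrin chain, for both JUNB and IER3. Each match was picked as among the highest of 10133 values, so a high r is partly a result of that choice.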

How the data were processed

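RNA of 30 libraries was sequenced by the authors. The submitters' processing notes name STAR 2.5.1b, edgeR and GRCh37 (hg19), without their roles. Counter, strand setting and annotation were not given in the sources used here. Reads of overlapping antisense genes therefore cannot be told apart. The name of the deposited table gives TMM and CPM, and its values read as log2(CPM + 1), the log2 unit used here. Within each library all values (100%) were whole multiples of a single step, within 0.01 reads, which gave back the reads. Groups came from the sample titles. A mean per group was fitted with limma 3.58.1 (R 4.3.3) to the deposited log2 values, keeping 12743 genes that reached 1 CPM in 2 or more libraries. Moderation used a trend and robust settings, with 15 residual degrees of freedom and 8.08 prior ones (median). Tests were two-sided, and adjustment was over all tested genes within each comparison; many comparisons share control groups. Alternatives were an added 0.25 CPM, no filter, median-of-ratios scaling, the replicate number as a block, only the lines compared, each library left out, voom on the recovered reads, and correction of each library for GC content and length, taken from GENCODE v29 transcripts that matched 95.3% of the tested genes. A group left with 1 library was assumed to vary like the others. The fit was also run on simulated independent counts. These had none of the GC differences between replicates seen here, so that run does not cover them. Tables were made with pandas 2.3.3. All members are named. A marker of the immune list is not reported here. Per comparison and list, up to 4 called genes with the largest change could be named, and per member the 3 genes most like it. Members, lists and alternatives were chosen with earlier results of these data known. Counting limits precision for low genes, as with FOSB at 13 to 359 reads.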

Additional observations from a re-analysis of the deposited data

Results flagged for a closer look

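Each result here is a difference between 2 lines in the response to the same treatment, tested as the difference itself and called by limma. Of all tested genes 58.3% were called in this way for 1 µM doxorubicin, 10.8% for 10 nM paclitaxel and 0.408% for ruxolitinib. With most genes called for doxorubicin, a call there says little by itself. For 1 µM doxorubicin, resistant minus parental, the values were -2.69 for ATF3, -2.25 for FOSB, -1.10 for JUN, -1.02 for IER2, -0.58 for EGR1 and 0.37 for DUSP1. For 10 nM paclitaxel they were -1.38 for EGR1, -0.83 for ATF3, -0.77 for FOS, -0.64 for JUN and -0.53 for IER2. For ruxolitinib the value was 0.55 for DUSP1. For EGR1 and FOS in 10 nM paclitaxel, both parental drug libraries lay above their DMSO libraries and both resistant drug libraries below theirs, although the difference for FOS within the resistant line was not called.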

How the results depend on the processing

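Of 2055 values of single members recomputed under an alternative, 1813 kept direction and call, 167 lost the call, 64 gained one and 11 turned sign. Leaving out a library gave 125 of the losses. The values cover only the 181 pairs of member and comparison that were called in at least 1 setting, alternatives included. Percentages in parentheses are the share of all tested genes called in the same fit, and those of the fit as designed are given above. With only the lines compared in the fit, members called were 3 for parental 2.5 nM paclitaxel (7.85%) and 2 between its doses (14.9%). They were 0 for 65 nM doxorubicin (3.62%), 8 for resistant 10 nM paclitaxel (29.4%) and 4 for resistant ruxolitinib (16.5%). For paclitaxel under ruxolitinib they were 1 in parental (1.35%) and 2 in resistant cells (0.62%). After GC and length correction they were 2 for 350 nM doxorubicin (14.9%) and 4 between the resistant paclitaxel doses (16%). They were 7 and 1 for parental (17.2%) and resistant (0.51%) paclitaxel under ruxolitinib and 3 for the difference in ruxolitinib response. With no filter, where more genes are tested, they were 5 for resistant 1 µM doxorubicin (27%), 0 for resistant 6.5 nM paclitaxel (0.0213%) and 1 between its doses (2.86%). With voom the 6.5 nM count was 0 (0.0392%).

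With the replicate number as a block, the count was 0 at 6.5 nM and 1 between the resistant doses, and 3 single values lost their call in this replicate block fit (ATF3 at 6.5 nM, FOSB between those doses and IER2 in the difference in paclitaxel response), which changed no other call. The labels tie the numbers to no shared batch, and replicate differences of pairs of groups correlated from -0.689 to 0.65 (median 0.00164, 105 pairs), so the numbers were not taken as pairs. Leaving out 1 library gave counts of 4 to 7 for doxorubicin-resistant and 6 to 7 for paclitaxel-resistant against parental DMSO, 3 to 5 between them, 1 to 9, 6 to 10 and 2 to 5 for parental 2.5 nM, 10 nM and the step between, 0 to 3 for 65 nM doxorubicin, 4 to 6 for resistant 1 µM doxorubicin, 0 to 0, 3 to 4 and 1 to 1 for resistant 6.5 nM, 10 nM and the step, 4 to 8 and 1 to 2 for ruxolitinib added to paclitaxel in parental and resistant cells, 1 to 3 for parental paclitaxel under ruxolitinib, 3 to 6 for the difference in paclitaxel response and 0 to 2 for that in ruxolitinib response. Signs turned for differences not called in the report. For JUNB at 1 µM doxorubicin the value was 0.065 by median-of-ratios, 0.15 by GC and length, and -0.24 to 0.18 leaving out a library. Between doxorubicin doses JUNB was at 0.18 by GC and length and -0.24 to 0.026 leaving out a library, IER3 at -0.35 to 0.028 and NR4A1 at -0.15 to 0.26. Between paclitaxel doses JUNB was at -0.089 to 0.12. Apart from the constructions named, the cause was not tested. Scaling by median-of-ratios moved the median gene of a library by -0.0239 to 0.0824 log2.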
